A study of Homo sapiens with 2 samples.

Results

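The genes described here are 44 regulators of RNA splicing, found by symbol among the 33694 genes counted, with 1 match for each symbol. They comprise 12 SR proteins (SRSF1 to SRSF12), 2 TRA2 proteins, 14 heterogeneous nuclear ribonucleoproteins (hnRNPs), 2 polypyrimidine tract binding (PTB) proteins, 8 regulators best known from neurons, 2 muscleblind proteins, 2 epithelial regulators (ESRP1 and ESRP2), QKI and the kinase CLK1. Reads were counted per gene, so the values give the level of each gene and say nothing of which exons were used.

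SR proteins bind RNA and recruit the spliceosome through domains rich in arginine and serine, and kinases of the CLK family phosphorylate those domains. hnRNPs and PTB proteins often act in the opposite direction on the same exons. RBFOX, NOVA, ELAVL and CELF proteins and SRRM4 set exon choices in neurons, and several of them are also made in pancreatic endocrine cells, which share part of their splicing programme with neurons. Many of these genes regulate their own transcripts through exons that lead to decay, which a gene level cannot separate from productive RNA.

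The cells were stem cell derivatives of the Mel1-INS-GFP line, human embryonic stem cells with GFP at the insulin gene, and both libraries carry the genotype iSOX9KO. By the study's methods the line makes guides against SOX9 at all times and Cas9 only with DOX, and the clusters of beta cells (eBCs) were reaggregated from cells sorted for high GFP. The library labelled no DOX received no doxycycline, and the library labelled DOX received 2 ug/ml from day 12 of the differentiation. With 1 library per condition there was no replicate and no test, and every range in parentheses is a 95% interval for counting error only. Levels are unique molecular identifiers (UMIs) added up within a class and scaled to a class total of 1000000 UMIs (CPM). Where a pair of values is given, the library labelled no DOX comes first.

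The filters kept 21805 of 30288 barcodes in the library labelled no DOX and 23116 of 31817 in the library labelled DOX, with medians of 13958 and 12667 UMIs. The targeted gene SOX9 was counted at 2.998 and 3.78 CPM, and in duct-like cells at 253 and 283 CPM. Over all cells and in duct-like cells it was therefore not lower where the label says DOX, and the libraries are called by their labels throughout. Endocrine classes held few SOX9 UMIs (277 in the library labelled DOX) and are not compared for this gene. An exchange of the labels and an edit that leaves SOX9 UMIs in place cannot be told apart here, and an exchange would turn the sign of every ratio between the libraries. The libraries shared 369 barcodes. Mitochondrially encoded genes took 8.60% and 9.38% of UMIs. Markers of acinar cells (6 genes), mesenchyme (6) and endothelium (5) summed to 4.47, 4.37 and 3.62 CPM with the label no DOX, where 1 acinar marker was at 0, and to 9.27, 5.78 and 3.48 CPM in the library labelled DOX.

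Clustering without the 44 genes and without a wider splicing list gave 6 classes that could be named from markers. They were duct-like (331 cells), proliferating progenitor-like (974), delta-like (4577), alpha-like (9220) and beta-like (16980), and a class of 10509 cells with markers of beta cell progenitors that is called beta progenitor-like. Another 2330 cells stayed unnamed. Alpha-like cells numbered 5093 and 4127, delta-like 2639 and 1938, beta progenitor-like 5220 and 5289 and beta-like 7070 and 9910 by library. Classes were made from the same cells in which the genes were counted, so every comparison between classes is a description. INS took 19.4% of UMIs in beta-like cells of each library against 1.96% and 1.496% in duct-like cells, so the CPM of every other gene depends on the hormone RNA of its class.

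Together the 44 genes took 0.4004% and 0.399% of UMIs. By class the share was 0.757% and 0.763% in duct-like cells, 0.574% and 0.561% in proliferating progenitor-like cells and 0.487% and 0.484% in beta progenitor-like cells. Of the 6 named classes it was lowest in alpha-like cells, at 0.349% and 0.353%. The duct-like class held the highest level of 24 of the 44 genes and the beta progenitor-like class of 9. No such counts are given over all genes, so these are not set against a background. For 35 genes the highest class was the same in both libraries. ELAVL4 had 9 and 2 UMIs, too few for any comparison. RBFOX3 was the other gene below 5 CPM over all cells, and 42 genes passed this minimum and are set against all genes that passed it.

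**Figure D1:**
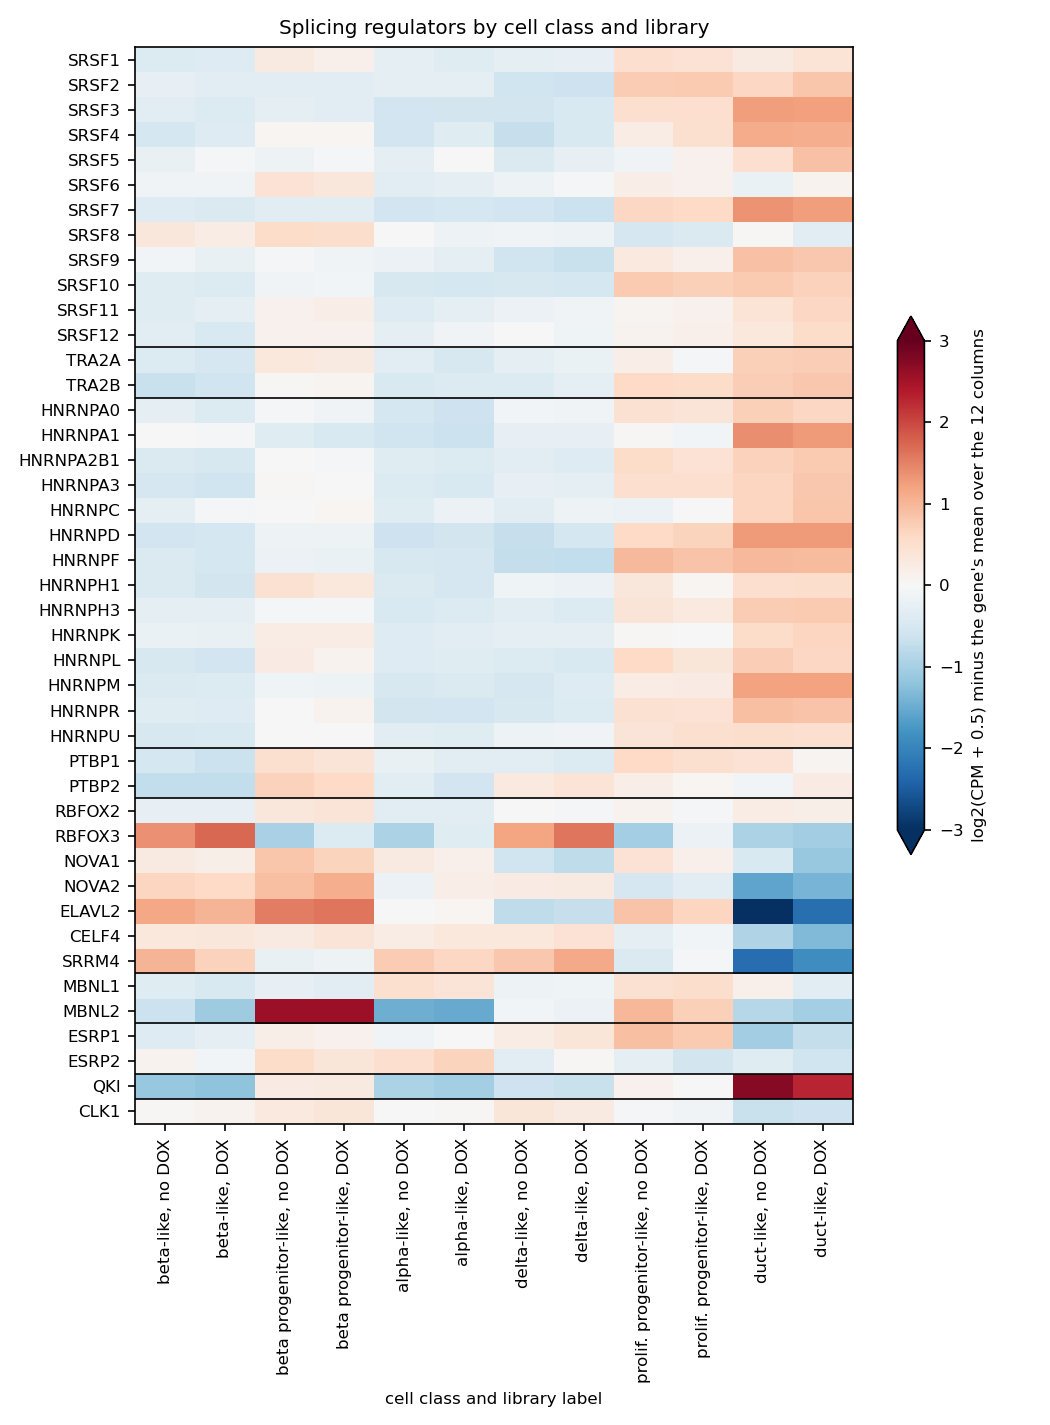
Levels of 43 splicing regulators (vertical axis, grouped by role, without ELAVL4) in 6 cell classes of 2 libraries (horizontal axis), coloured by log2(CPM + 0.5) minus the mean of the gene over the columns. SR proteins and hnRNPs are mostly darkest red in the duct-like columns, MBNL2 stands out in the beta progenitor-like columns, and ELAVL2, SRRM4 and NOVA2 are bluest in the duct-like columns.

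Duct-like cells, which express SOX9, held more of 5 of 12 SR proteins and 7 of 14 hnRNPs, and less of 4 of 6 neuronal-type regulators, than the endocrine classes (alpha-like, beta-like, delta-like and beta progenitor-like together). A gene was counted as higher or lower when its log2 ratio reached 1 or -1 in both libraries. Of 42 genes, 14 (33.3%) were higher and 5 (11.9%) lower, against 17.8% and 14.7% of all 11713 genes. The median log2 ratio was 0.85 over the 42 genes and 0.09 over all genes.

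Among the SR proteins 5 of 12 were higher. SRSF3, a small SR protein that shuttles between nucleus and cytoplasm, was counted at 456 and 449 CPM in duct-like cells, against 146 and 143 CPM in endocrine cells. Both libraries gave the same order, with a log2 ratio of 1.65 (1.59 to 1.70) over both. SRSF7, an SR protein with a zinc knuckle, was counted at 242 and 229 CPM against 70.004 and 69.8 CPM, a log2 ratio of 1.75 (1.67 to 1.83). SRSF4, SRSF10 and SRSF9 had log2 ratios of 1.45 (1.34 to 1.57), 1.10 (1.01 to 1.18) and 1.03 (0.97 to 1.10). SRSF2 was just outside, at 0.93 and 1.16 in the 2 libraries.

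SRSF5, an SR protein first found as a growth response gene of regenerating liver, had a log2 ratio of 0.87 (0.79 to 0.96), short of the fold. SRSF6 was counted at 65.5 and 80.3 CPM in duct-like and 73.9 and 73.4 CPM in endocrine cells. Its order differed between the libraries and its log2 ratio was 0.00 (-0.15 to 0.14). CLK1, a kinase of SR proteins, lay on the other side, at 18.5 and 19.0 CPM in duct-like and 32.5 and 33.4 CPM in endocrine cells, a log2 ratio of -0.81 (-1.10 to -0.53). SRSF8 had the lowest ratio of the SR proteins, -0.39 (-0.58 to -0.21).

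All 14 hnRNPs had a ratio above 0 in both libraries, and 7 were past the fold. The share of all genes above 0 is not given, and their median was itself above 0, at 0.08 in each library. HNRNPD, which binds AU-rich RNA, was counted at 330.04 and 331 CPM in duct-like and 96.8 and 99.6 CPM in endocrine cells, a log2 ratio of 1.75 (1.68 to 1.82). HNRNPA1, a repressor of many exons, was counted at 979 and 895 CPM against 318 and 316 CPM. For both genes the order was the same in each library. HNRNPM, HNRNPF, HNRNPR, HNRNPH3 and HNRNPL had log2 ratios of 1.57 (1.502 to 1.63), 1.41 (1.31 to 1.51), 1.19 (1.12 to 1.26), 1.04 (0.95 to 1.14) and 1.01 (0.84 to 1.17). HNRNPA2B1, at 0.9985 and 1.15, and HNRNPA3, at 0.97 and 1.23, were just outside. Of the TRA2 proteins, activators related to SR proteins, TRA2B was past the fold at 1.18 (1.08 to 1.28) and TRA2A was not, at 0.97 (0.82 to 1.11).

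The counts depended on the denominator, a change that moves every gene of a class together. With hormone genes and mitochondrially encoded genes left out of the totals, the median log2 ratio was 0.46 over the members and -0.34 over all genes. By this measure 7 members were higher (SRSF3, SRSF4, SRSF7, HNRNPA1, HNRNPD, HNRNPM and QKI) and 9 were lower, against 12.3% and 22.5% of all genes. The lower ones were the 5 from above with NOVA1, ESRP1, ESRP2 and CLK1. With doublets kept, 8 were higher and 2 lower, against 12.6% and 4.78% of all genes. MBNL2, one of the 5 lower members, went from -1.71 to -0.51. The cluster that then took the name duct-like had 625 cells with a median of 19840 UMIs. It stood in place of 331 cells with a median of 14528 UMIs, so this setting does not describe the same class.

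QKI, an RNA-binding protein of the STAR family known from glia and from epithelial to mesenchymal transition, had the largest ratio. In duct-like cells QKI (ENSG00000112531, chromosome 6 from 163414000 to 163578592) stood at 76.9 CPM (66.5 to 88.5) with no DOX and 56.4 CPM (48.3 to 65.5) with DOX. Every other class lay between 4.57 and 13.6 CPM in both libraries. The log2 ratio over endocrine cells was 3.25 (3.09 to 3.40). With each cell thinned to 5000 UMIs, which left out 7 of the 331 duct-like cells, 34.7% (27.0 to 43.0) and 26.0% (19.7 to 33.1) of duct-like cells held a QKI UMI, against 2.33% (1.98 to 2.72) and 2.17% (1.88 to 2.48) of beta-like cells. Without thinning the shares were 64.7% and 55.6% of duct-like cells and 8.29% and 6.81% of beta-like cells. QKI is among the cluster markers the study listed from these libraries, so its class is not an independent result.

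Of the 6 neuronal-type regulators that passed the minimum, 4 were lower in duct-like cells by the fold and none was higher. RBFOX2 had a log2 ratio of 0.29 (0.13 to 0.45), which turned to -0.10 without hormone and mitochondrially encoded genes in the totals. ELAVL2, a neuronal protein that binds AU-rich RNA, was counted at 5.13 and 10.2 CPM in duct-like cells and at 96.7 and 98.0 CPM in endocrine cells, a log2 ratio of -3.63 (-4.09 to -3.20). SRRM4, the activator of neuronal microexons, had 4 and 7 UMIs in duct-like cells, or 1.58 and 2.29 CPM, against 16.3 and 14.7 CPM in endocrine cells. The duct-like level of SRRM4 thus rests on few UMIs, with a log2 ratio of -2.98 (-3.98 to -2.14). NOVA2 and CELF4 had log2 ratios of -2.29 (-3.24 to -1.48) and -1.45 (-1.63 to -1.28). NOVA2 and SRRM4 passed the minimum only through endocrine cells. With doublets kept, where the duct-like cluster had 625 cells, the log2 ratios were closer to 0. They were -1.16 for ELAVL2, -1.36 for SRRM4, -0.87 for NOVA2 and -0.78 for CELF4. NOVA2 and CELF4 were then no longer past the fold.

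After thinning, 2.04% (0.423 to 5.85) and 5.65% (2.74 to 10.1) of duct-like cells held an ELAVL2 UMI, against 46.1% (44.8 to 47.5) and 47.2% (45.9 to 48.6) of beta progenitor-like cells. For SRRM4 the shares were 1.36% (0.165 to 4.83) and 1.13% (0.137 to 4.02) of duct-like and 8.96% (8.29 to 9.67) and 7.49% (6.97 to 8.03) of beta-like cells. Free RNA can give such UMIs in cells that do not express a gene. It was not measured here, and each share is given beside that of the class with the lowest share. Without thinning, 7.19% and 13.5% of duct-like cells held an ELAVL2 UMI and 1.96% and 3.93% an SRRM4 UMI.

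Within the endocrine classes the neuronal-type regulators did not share 1 pattern. ELAVL2 was counted at 146 and 154 CPM in beta progenitor-like, 114 and 103 CPM in beta-like, 51.2 and 52.4 CPM in alpha-like and 29.3 and 31.0 CPM in delta-like cells. This order was the same in both libraries. The counting intervals of neighbours did not overlap, which does not measure a spread between replicates. CELF4, whose family binds GU-rich RNA, was nearly level, from 124 CPM in alpha-like cells of the library labelled no DOX to 145 CPM in delta-like cells of the library labelled DOX. NOVA1, a binder of YCAY motifs, was counted at 99.9 and 88.9 CPM in beta progenitor-like and 36.6 and 33.0 CPM in delta-like cells, with beta-like and alpha-like cells between 62.5 and 67.4 CPM. NOVA1 in duct-like cells was counted at 41.0 and 25.2 CPM.

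NOVA2 was counted at 13.4 and 15.3 CPM in beta progenitor-like, 11.002 and 10.7 CPM in beta-like, 8.25 and 8.45 CPM in delta-like and 6.08 and 8.02 CPM in alpha-like cells. RBFOX2, the RBFOX protein made in many tissues, lay between 38.2 CPM (alpha-like, library labelled no DOX) and 63.0 CPM (beta progenitor-like, library labelled DOX) in all 6 classes. RBFOX3, the antigen of the neuronal marker NeuN, was detectable at several CPM in beta-like cells (3.96 and 5.20 CPM) and delta-like cells (3.42 and 4.72 CPM), and at 0.383 and 0.833 CPM in alpha-like and 0.381 and 0.784 CPM in beta progenitor-like cells. In duct-like cells RBFOX3 had 1 UMI in each library.

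**Figure D2:**
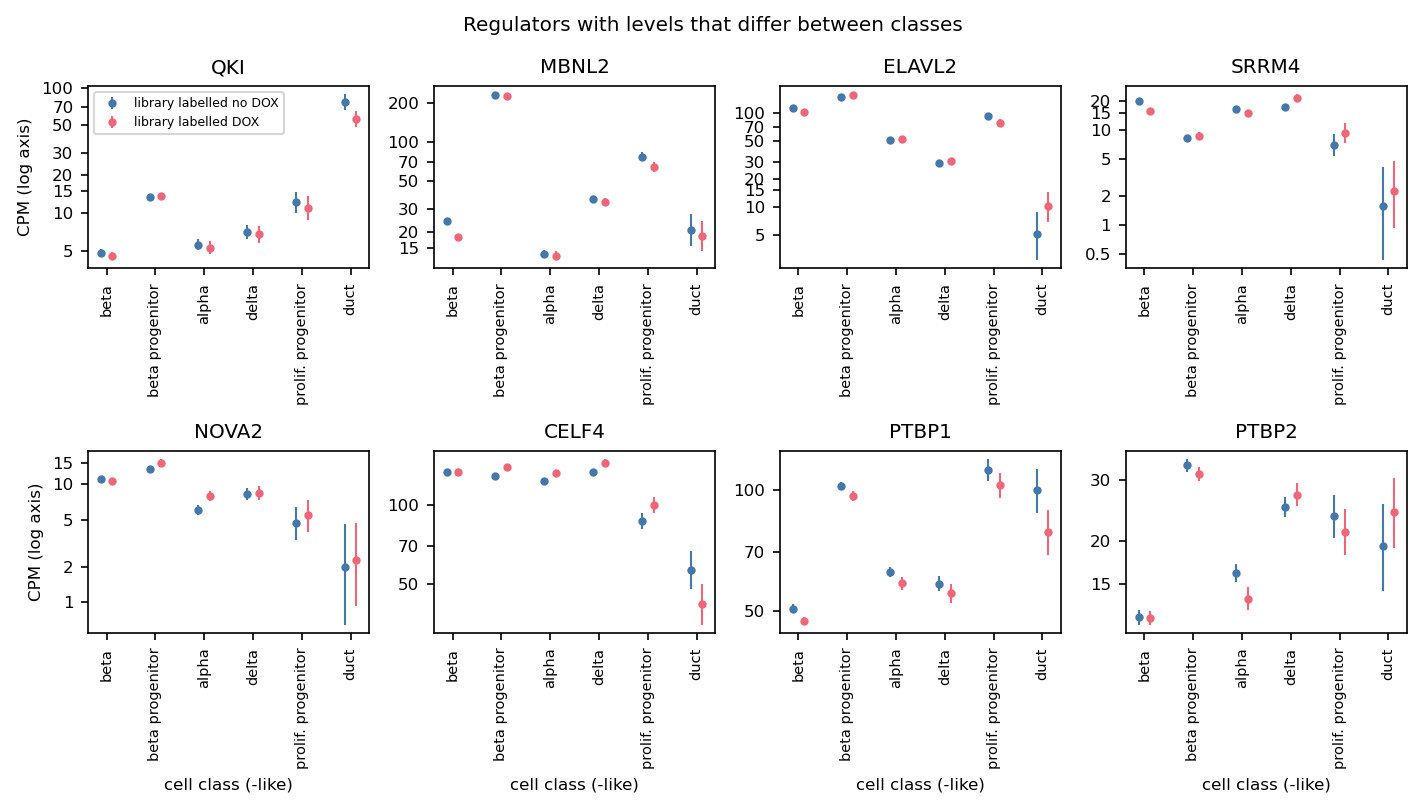
CPM (log axis) of 8 regulators in 6 cell classes, with 95% counting intervals, for the library labelled no DOX (blue) and the library labelled DOX (red). QKI is highest in duct-like cells at 76.9 and 56.4 CPM, MBNL2 in beta progenitor-like cells at 230.3 and 229 CPM, and ELAVL2, SRRM4, NOVA2 and CELF4 are lowest in duct-like cells.

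The epithelial regulators ESRP1 and ESRP2 were not past the fold in duct-like cells, with log2 ratios of -0.77 (-1.10 to -0.46) and -0.80 (-1.52 to -0.17). Without hormone and mitochondrially encoded genes in the totals both were past it, at -1.16 and -1.20. ESRP2 was at only 3.58 CPM in duct-like cells over both libraries. ESRP1 was counted at 51.0 and 47.6 CPM in proliferating progenitor-like cells, above 31.9 and 35.0 CPM in delta-like cells, the next highest. PTBP1 and its neuronal paralog PTBP2 had log2 ratios of 0.49 (0.36 to 0.62) and 0.27 (0.01 to 0.53) in duct-like over endocrine cells, and without hormone and mitochondrially encoded genes that of PTBP2 turned to -0.12.

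Among 100 other splicing genes, 25 were higher and 4 lower in duct-like cells, against 17.8% and 14.7% of all genes. Their median log2 ratio was 0.56. Without hormone and mitochondrially encoded genes in the totals 8 were higher and 6 lower, against 12.3% and 22.5% of all genes. With doublets kept, in the duct-like cluster of 625 cells, 11 of 99 were higher and 3 lower, against 12.6% and 4.78%. In the main setting the 3 highest ratios were those of CELF5 (2.69), KHDRBS3 (2.23) and SNRPA (2.05), a protein of the U1 snRNP. CELF5 passed the minimum only through duct-like cells, at 5.55 against 0.859 CPM. The 3 lowest were SRRM3 (-4.92), a paralog of SRRM4, ELAVL3 (-3.58) and CELF3 (-3.27). SRRM3, at 0.537 against 16.3 CPM, and ELAVL3, at 0.716 against 8.58 CPM, passed the minimum only through endocrine cells.

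Proliferating progenitor-like cells, marked by TOP2A and MKI67, held more of 3 SR proteins and 2 hnRNPs than endocrine cells. By the same fold 5 of 42 genes were higher and 1 lower, against 10.3% and 1.63% of all 11136 genes, so the share of members higher, 11.9%, was near that of all genes. The median was 0.52 over the members and 0.11 over all genes. With doublets kept none was past the fold, against 0.791% of all genes higher and 0% lower, but the cluster that then took this name had 10166 cells with a median of 26300 UMIs in place of the 974 cells.

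HNRNPF, which binds G-rich RNA, was counted at 152 and 141 CPM in proliferating progenitor-like and 58.1 and 55.8 CPM in endocrine cells, a log2 ratio of 1.37 (1.31 to 1.42). SRSF2, an SR protein that binds exonic enhancers, was counted at 217 and 222 CPM against 103 and 102 CPM, a log2 ratio of 1.10 (1.05 to 1.15). HNRNPD, SRSF10 and SRSF7 had log2 ratios of 1.11 (1.06 to 1.16), 1.10 (1.05 to 1.16) and 1.06 (1.00 to 1.12). Of these 5, HNRNPD, SRSF7, SRSF10 and HNRNPF were also past the fold in duct-like cells. NOVA2, a neuronal regulator, was the gene that was lower, at 4.66 and 5.43 CPM against 10.1 and 10.9 CPM and a log2 ratio of -1.06 (-1.39 to -0.75). It fell short of the fold without cells over 20% mitochondrial UMIs (-0.95), after thinning (-0.71) and at Leiden resolution 0.5 (-0.88), and missed it in at least 1 library with another Leiden seed. Just outside were TRA2B (0.98), ESRP1 (0.96) and SRRM4 (-0.94).

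SRSF5, SRSF6 and CLK1 were close to their endocrine levels, with log2 ratios of 0.16 (0.09 to 0.22), 0.19 (0.11 to 0.27) and -0.23 (-0.37 to -0.10). HNRNPF and NOVA2 remained past the fold when hormone and mitochondrially encoded genes were left out of the totals, where 8.9% of all genes were higher and 2.56% lower, and also when ratios were centred on the median of all genes. SRSF2 (0.98), SRSF7 (0.94), SRSF10 (0.98) and HNRNPD (0.99) then fell just short, by the values without those genes in the totals. With all genes in the totals, 7 of 99 other splicing genes were higher and 0 lower, against 10.3% and 1.63% of all genes. SNRPB (1.60), HNRNPAB (1.55) and MAGOHB (1.30) had the 3 highest ratios, and ELAVL3 (-0.55), CELF3 (-0.54) and SF3B5 (-0.14) the 3 lowest.

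E2F factors bind promoters of many genes of proliferating cells. The promoter windows of the genes that were higher in proliferating progenitor-like cells are shown for their letters only, and binding was not tested. The 250 bases before the RefSeq gene start are given from 5′ to 3′ on the strand of the gene, from RefSeq on GRCh38.p14, with capitals for a match to an E2F-type motif. SRSF2 had no entry among the promoter sequences used and is named only. In GENCODE 44 the gene begins at the same base for SRSF7, but 600, 512 and 329 bases further upstream for SRSF10, HNRNPD and HNRNPF, so these 3 windows lie within the GENCODE genes.
SRSF7 (chr2:38751495-38751744, minus strand): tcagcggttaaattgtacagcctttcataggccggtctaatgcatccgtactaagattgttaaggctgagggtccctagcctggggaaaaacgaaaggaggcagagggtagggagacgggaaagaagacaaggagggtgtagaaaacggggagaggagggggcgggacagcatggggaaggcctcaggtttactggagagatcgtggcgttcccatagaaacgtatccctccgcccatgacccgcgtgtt
SRSF10 (chr1:23980328-23980577, minus strand): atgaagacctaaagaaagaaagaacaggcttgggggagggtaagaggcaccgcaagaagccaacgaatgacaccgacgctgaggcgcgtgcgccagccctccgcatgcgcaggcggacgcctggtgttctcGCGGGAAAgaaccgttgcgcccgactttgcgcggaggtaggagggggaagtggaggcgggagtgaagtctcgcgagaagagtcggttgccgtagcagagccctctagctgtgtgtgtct
HNRNPD (chr4:82373992-82374241, minus strand): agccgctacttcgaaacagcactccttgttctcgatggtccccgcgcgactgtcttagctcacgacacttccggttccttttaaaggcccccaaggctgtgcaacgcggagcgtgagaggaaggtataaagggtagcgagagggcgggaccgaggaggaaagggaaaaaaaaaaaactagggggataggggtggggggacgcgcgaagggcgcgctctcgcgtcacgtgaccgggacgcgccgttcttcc
HNRNPF (chr10:43408858-43409107, minus strand): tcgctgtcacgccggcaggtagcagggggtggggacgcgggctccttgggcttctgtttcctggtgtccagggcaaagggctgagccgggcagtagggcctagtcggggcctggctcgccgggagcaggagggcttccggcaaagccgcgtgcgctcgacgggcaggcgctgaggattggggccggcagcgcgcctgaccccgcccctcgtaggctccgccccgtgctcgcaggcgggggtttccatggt
The letters searched were TTTCCCGC, TTTCGCGC, TTTGCCGC and TTTGGCGC on both strands. SRSF10 held 1 match, starting 119 bases before the RefSeq gene start, and the other 3 windows held none. Such letters occurred in 761 of 27305 promoters (2.79%) and in 4 of the 37 member promoters in the table (SRSF10, TRA2B, HNRNPA3 and HNRNPK). A match describes the letters only.

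Beta cell progenitor-like cells, which express FEV beside insulin, held more of MBNL2, QKI, PTBP2 and PTBP1 than beta-like cells. In beta-like over beta progenitor-like cells 0 of 42 members were higher and 4 lower, against 3.57% and 24.3% of all 10996 genes. The median log2 ratio was -0.44 over the members and -0.59 over all genes. INS took 7.05% and 5.89% of UMIs in beta progenitor-like cells, against the 19.4% in beta-like cells, and without hormone and mitochondrially encoded genes the median of all genes was -0.37. By that denominator 2 of 43 members were higher (SRRM4, and RBFOX3, which passed the minimum only through beta-like cells) and 3 lower, against 4.85% and 15.7% of all genes.

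MBNL2, a muscleblind protein that sets mature splicing patterns in brain (ENSG00000139793, chromosome 13 from 97221434 to 97394120), had the largest difference. It was counted at 230.3 CPM (227 to 234) with the label no DOX and 229 CPM (225 to 233) with the label DOX in beta progenitor-like cells, and at 24.5 CPM (23.7 to 25.4) with no DOX and 18.1 CPM (17.5 to 18.8) with DOX in beta-like cells. No other class was above 77.0 CPM, the level in proliferating progenitor-like cells of the library labelled no DOX. Beta-like over beta progenitor-like cells gave a log2 ratio of -3.45 (-3.49 to -3.41), and of the 4 lower members MBNL2 was the 1 still past the fold after centring on the median of all genes. After thinning, 64.3% (63.0 to 65.7) and 64.2% (62.9 to 65.5) of beta progenitor-like cells held an MBNL2 UMI, against 6.64% (5.92 to 7.41) and 6.63% (5.84 to 7.49) of alpha-like cells, the lowest of the classes. Without thinning these were 86.03% and 83.3% against 15.6% and 14.6%. MBNL2 and ELAVL2 are also among the cluster markers the study listed from these libraries.

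MBNL1, the more widely expressed paralog, did not share this pattern and was highest in alpha-like and proliferating progenitor-like cells, at 64.6 and 61.0 CPM and 63.8 and 67.7 CPM. Its log2 ratio of beta-like over beta progenitor-like cells was -0.13 (-0.18 to -0.07).

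PTBP1, which represses neuronal exons outside neurons, was counted at 102 and 96.6 CPM in beta progenitor-like and 50.6 and 47.2 CPM in beta-like cells, which is a log2 ratio of -1.03 (-1.07 to -0.996). PTBP2, which takes the place of PTBP1 in developing neurons, was counted at 33.0 and 31.2 CPM and 12.0 and 12.0 CPM, a log2 ratio of -1.43 (-1.49 to -1.36). Both PTB proteins were thus lower in beta-like cells in both libraries, PTBP1 by little more than the fold. PTBP2 was also higher in delta-like cells (25.1 and 27.2 CPM) than in alpha-like cells (16.1 and 13.6 CPM). QKI was the remaining gene, with a log2 ratio of -1.52 (-1.63 to -1.42). It was at 4.69 CPM in beta-like cells over both libraries, so QKI passed the minimum only through beta progenitor-like cells. With at least 20 CPM required it was no longer counted. After centring, PTBP1, PTBP2 and QKI were at -0.44, -0.84 and -0.93 and no longer past the fold.

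SRRM4 had a ratio on the other side, at 19.9 and 15.8 CPM in beta-like and 8.13 and 8.65 CPM in beta progenitor-like cells. Its log2 ratios were 1.29 and 0.87, so it missed the fold in the library labelled DOX. HNRNPA1 came next among the 42, at 0.39 (0.37 to 0.41). SRSF5, SRSF6 and CLK1 had log2 ratios of -0.02 (-0.05 to 0.01), -0.49 (-0.52 to -0.46) and -0.24 (-0.29 to -0.19). After centring on the median of all genes these were 0.57, 0.10 and 0.35, and the sign turned for 29 of the 42 members, so the direction of most small differences here depends on the scaling. Of 99 other splicing genes, 0 were higher and 16 lower, against 3.57% and 24.3% of all genes. PTBP3 (-1.86), SMG1 (-1.75) and HNRNPUL2 (-1.56) had the 3 lowest ratios, and MAGOHB (0.64), SNRPE (0.48) and SF3B6 (0.37) the 3 highest. Without hormone and mitochondrially encoded genes in the totals 0 of the 99 were higher and 10 lower, against 4.85% and 15.7% of all genes.

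**Figure D3:**
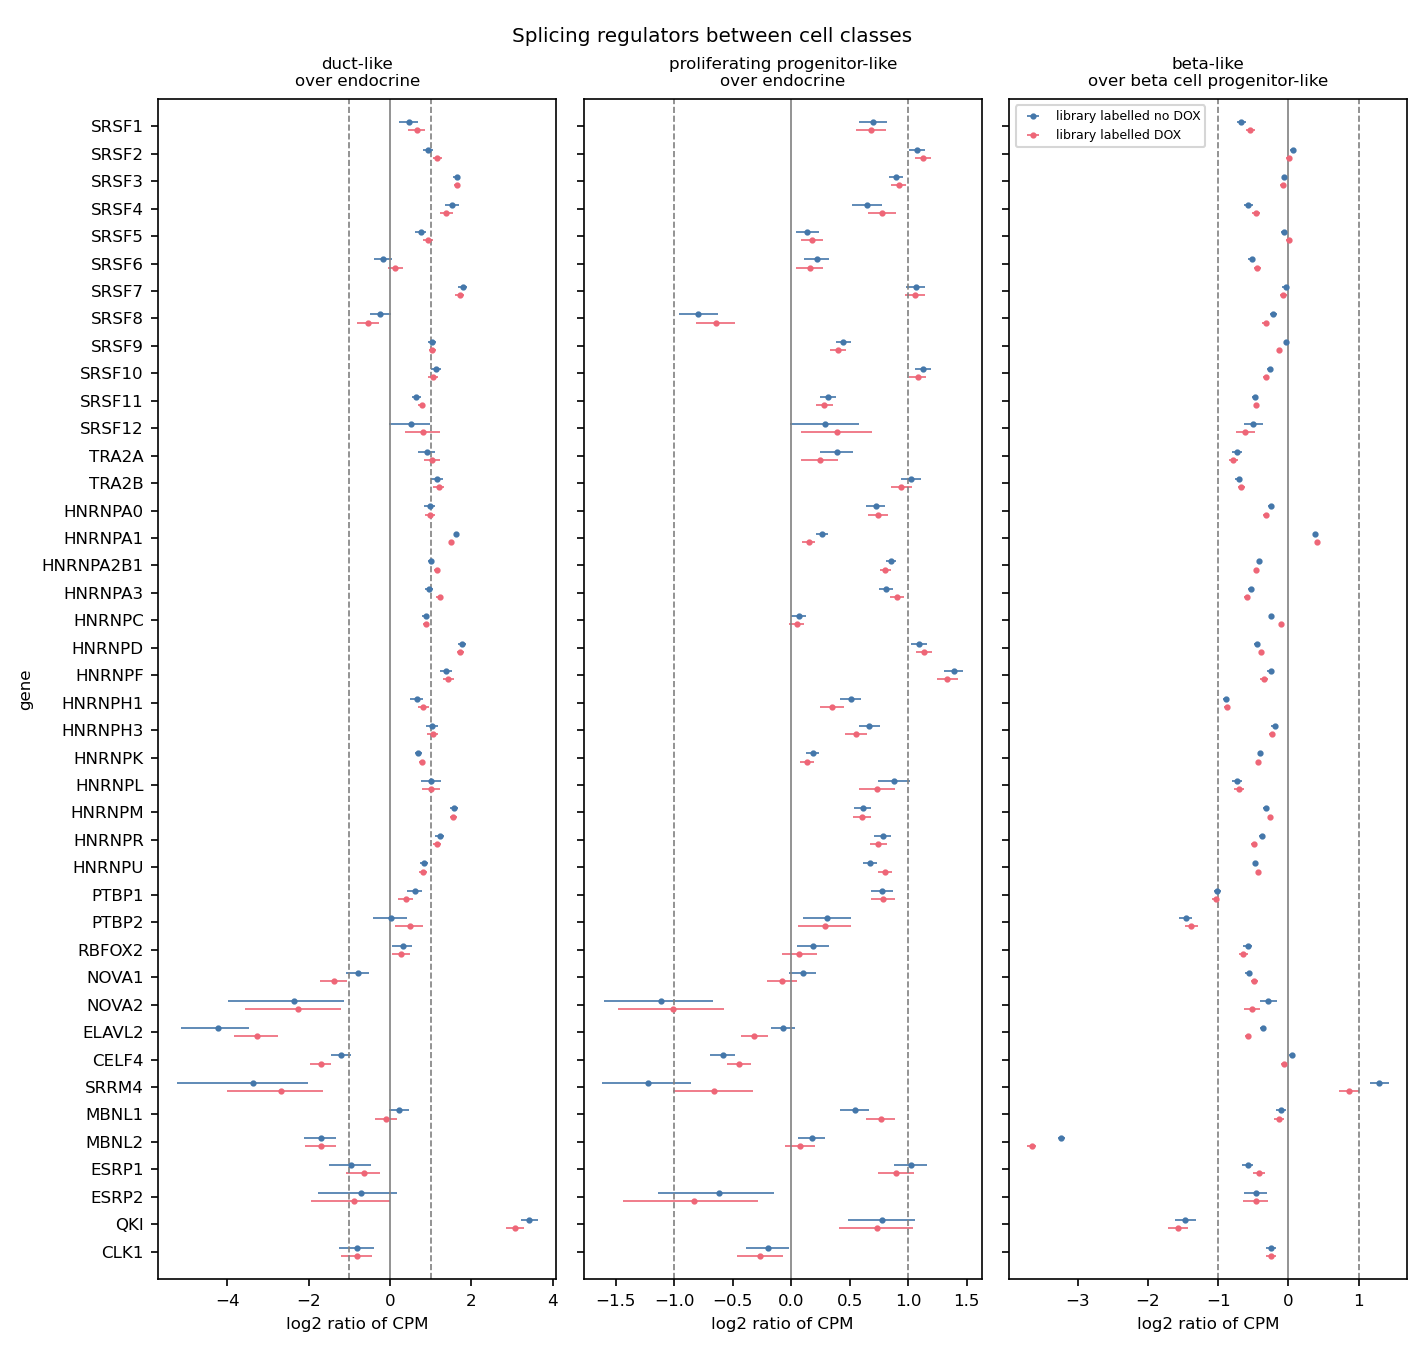
Log2 ratios of CPM between classes (horizontal axes) for 42 splicing regulators (vertical axis), with 95% counting intervals, in the library labelled no DOX (blue) and the library labelled DOX (red); dashed lines mark the fold. In the left panel 14 genes lie right of 1 in both libraries and 5 left of -1, and in the right panel MBNL2, QKI, PTBP2 and PTBP1 lie left of -1.

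Between the libraries no member reached a log2 ratio of 0.25 or -0.25 over all cells. By this fold 2.26% of all 10444 genes were higher and 3.51% lower in the library labelled DOX, shares so small that a count of 0 among 42 genes is near them. SRSF5 reached the fold after thinning (0.2504) and with the named classes weighted equally (0.2509), and QKI did so on the other side with equal weights (-0.30). The 42 ratios ran from -0.18 (-0.21 to -0.15) for MBNL2 to 0.21 (0.18 to 0.23) for SRSF5. A ratio over all cells also depends on the share of UMIs that each class gave to each library. By class MBNL2 ran from -0.43 in beta-like to -0.01 in beta progenitor-like cells. PTBP1 (-0.1322) and MBNL1 (-0.1307) were lower over all cells than in any of the 5 classes with at least 200 cells in each library, where the lowest ratios were -0.1271 and -0.1094. The interval lay above 0 for 10 genes and below 0 for 19, which reflects the number of UMIs and not a spread between replicates. The same counts are not given over all genes, so these have no background. Of 99 other splicing genes 2 were higher, ELAVL3 at 0.25 and KHDRBS2 at 0.30, and 0 were lower. SRPK2, a kinase of SR proteins, was the next highest at 0.22, and SMG5 (-0.19), U2AF1 (-0.16) and SMG1 (-0.15) were the 3 lowest.

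SRSF5 (ENSG00000100650, chromosome 14 from 69726900 to 69772005) was higher in the library labelled DOX in each class. In beta-like cells it was counted at 97.0 and 110.5 CPM, in beta progenitor-like cells at 101 and 110.1 CPM, in alpha-like cells at 93.0 and 114 CPM and in delta-like cells at 83.2 and 94.8 CPM. The log2 ratio was lowest in beta progenitor-like cells, 0.12 (0.07 to 0.17), and highest among the endocrine classes in alpha-like cells, 0.29 (0.24 to 0.34). In proliferating progenitor-like and duct-like cells, with fewer UMIs, it was 0.24 (0.11 to 0.37) and 0.38 (0.20 to 0.56). The alpha-like value is past the fold within that class.

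HNRNPC, an abundant hnRNP that binds uridine tracts, was counted at 229.8 and 266 CPM in beta-like cells and at 213 and 242 CPM in alpha-like cells. It was higher in the library labelled DOX in all 6 classes, by 0.18 (0.16 to 0.19) on the log2 scale over all cells. SRSF6 and CLK1 were level between the libraries or close to it, with log2 ratios of -0.01 (-0.04 to 0.02) and 0.04 (0.00 to 0.08). In each of the 5 classes with at least 200 cells in each library, 5 of 42 members were higher at any size (SRSF4, SRSF5, SRSF11, HNRNPC and CELF4) and 10 were lower (SRSF9, HNRNPA0, HNRNPA1, HNRNPA2B1, HNRNPA3, HNRNPF, HNRNPH1, PTBP1, NOVA1 and MBNL2). Over all genes 16.1% and 9.83% had the same direction in these 5 classes.

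**Figure D4:**
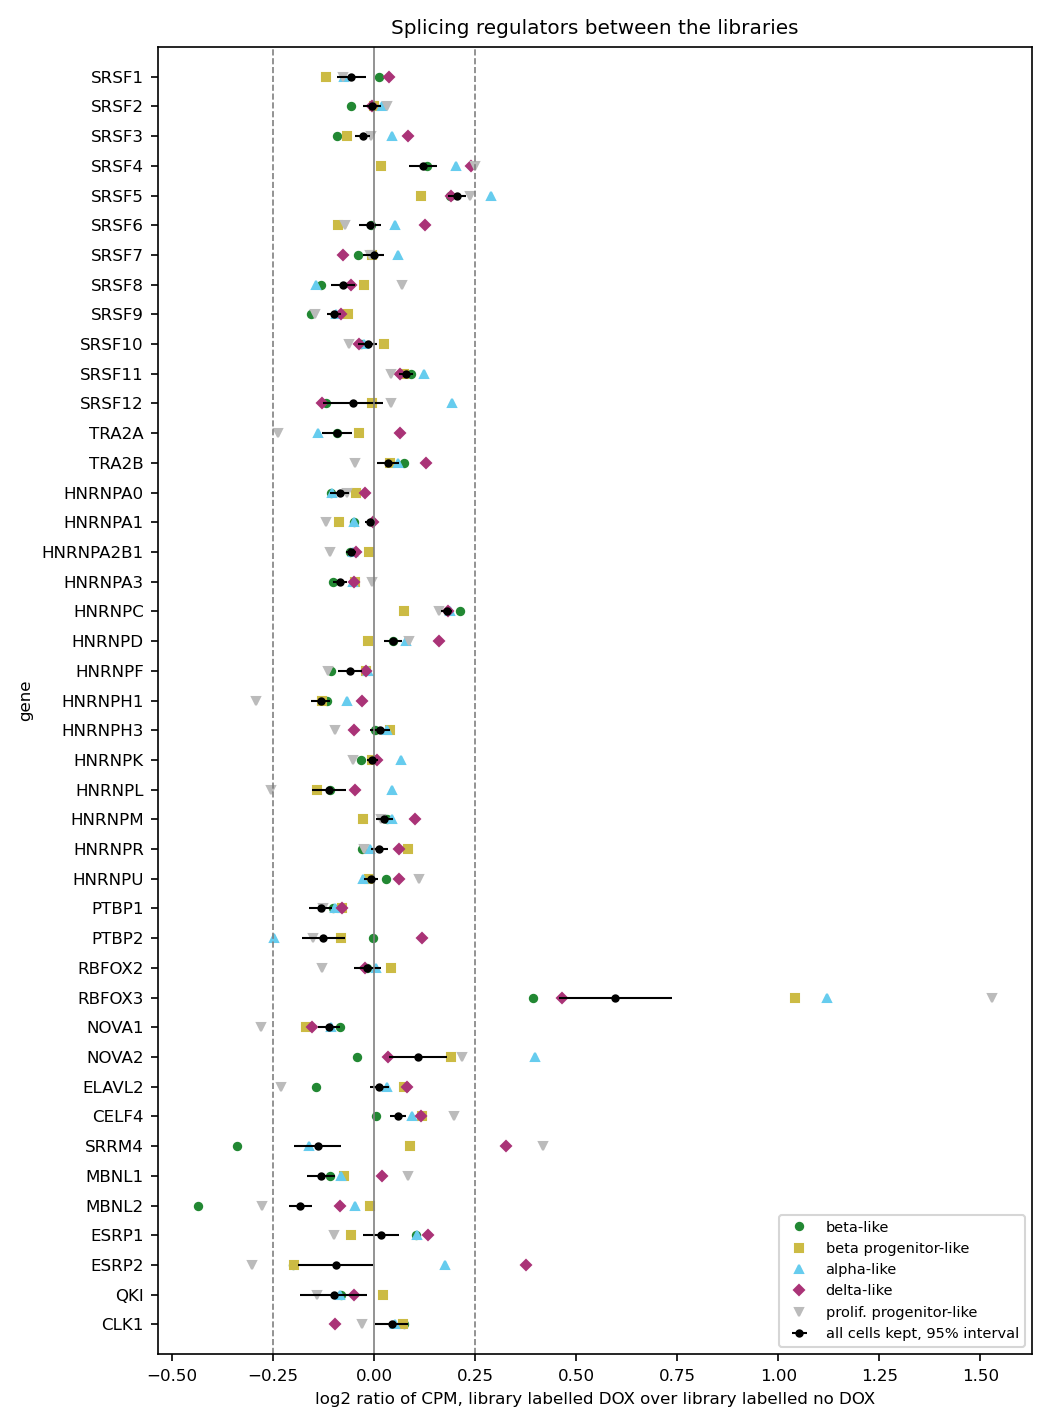
Log2 ratio of CPM in the library labelled DOX over the library labelled no DOX (horizontal axis) for 43 splicing regulators (vertical axis); black points with bars are all cells kept with 95% counting intervals, coloured symbols are 5 classes and dashed lines mark 0.25 and -0.25. Most symbols lie between the dashed lines. RBFOX3, SRRM4, MBNL2, SRSF5, NOVA2, ESRP2, HNRNPH1, NOVA1 and HNRNPL have at least 1 class outside them.

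SRSF6 (ENSG00000124193, chromosome 20 from 43457893 to 43466046) was counted at 101 and 94.6 CPM in beta progenitor-like, 69.9 and 69.5 CPM in beta-like, 67.3 and 73.5 CPM in delta-like and 59.4 and 61.5 CPM in alpha-like cells. The beta progenitor-like level was the highest of the 6 classes in both libraries, and the lowest was that in alpha-like cells with the label DOX and also with no DOX. The log2 ratio between the libraries ran from -0.09 (-0.14 to -0.04) in beta progenitor-like to 0.29 (0.00 to 0.59) in duct-like cells, the class with the fewest UMIs, and was 0.13 (0.04 to 0.22) in delta-like cells. CLK1 (ENSG00000013441, chromosome 2 from 200853009 to 200864691) was counted at 38.6 and 36.2 CPM in delta-like, 36.3 and 38.1 CPM in beta progenitor-like, 30.5 and 32.1 CPM in beta-like and 29.6 and 30.7 CPM in alpha-like cells. Its lowest level was that in duct-like cells of either library. The log2 ratio between the libraries ran from -0.10 (-0.22 to 0.03) in delta-like to 0.07 (0.01 to 0.13) in beta-like cells.

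Within classes some members were past the fold. In beta-like cells 1 was higher and 2 lower, against 2.36% and 3.99% of all genes. MBNL2 was counted at 24.5 and 18.1 CPM there, a log2 ratio of -0.43 (-0.51 to -0.36), and SRRM4 at 19.9 and 15.8 CPM, a log2 ratio of -0.34 (-0.42 to -0.26). RBFOX3, at 3.96 and 5.20 CPM and 0.39 (0.23 to 0.55), passed the minimum of 5 CPM only through the library labelled DOX. In beta progenitor-like cells none of 42 was past the fold, against 3.91% higher and 3.28% lower of all genes.

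In alpha-like cells 2 members were higher and 0 lower, against 5.21% and 3.39% of all genes. Beside SRSF5 this was NOVA2, at 6.08 and 8.02 CPM and a log2 ratio of 0.399 (0.20 to 0.60). In delta-like cells 2 were higher and 0 lower, against 6.3% and 2.99%. These were SRRM4, at 17.3 and 21.7 CPM and 0.33 (0.16 to 0.50), and ESRP2, at 4.15 and 5.38 CPM and 0.37 (0.02 to 0.72), which passed the minimum only through the library labelled DOX.

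In proliferating progenitor-like cells 1 of 41 members was higher and 4 were lower, against 10.6% and 11.4% of all genes, in a class of 974 cells. The lower members were HNRNPH1 (-0.29 (-0.42 to -0.16)), NOVA1 (-0.28 (-0.45 to -0.11)), MBNL2 (-0.28 (-0.45 to -0.11)) and HNRNPL (-0.26 (-0.46 to -0.05)). The higher member was SRRM4, and its interval of -0.09 to 0.93 includes 0.

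The beta-like difference of MBNL2 was not even over the 4 largest finer clusters of the class. It was -0.85 (-0.99 to -0.71) in the cluster with Beta-2 markers and -0.45 (-0.58 to -0.32) in the larger of 2 clusters with Beta-1 markers. In the smaller Beta-1-like cluster it was -0.15 (-0.32 to 0.03), and in a large cluster of beta-like cells without a marker set of its own it was -0.08 (-0.24 to 0.07).

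The genes whose levels followed SRSF5 most closely were found by Pearson's r of log2 CPM over 27 points, which are the fine clusters in each library and therefore share libraries and depth. The points include the duct-like cluster and an unnamed cluster with medians of 1978 UMIs and 70.7% mitochondrial UMIs. No r without these clusters is given. Of 5577 genes compared, SRPK2 (r = 0.94), C1orf131 (0.93), CCDC59 (0.92), BCL7A (0.92) and NKAP (0.91) came first. The closest member was HNRNPH3, at r = 0.86 and rank 94, followed by HNRNPC at 0.85.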

How the data were processed

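The authors deposited raw counts of UMIs per gene and barcode of 10X Genomics libraries, without normalization. The file headers name Cell Ranger 3.0.2, whereas the methods describe kallisto and bustools, so these counts are not those behind the published clusters. Strand use and annotation of the counting are not given in the sources used here. Barcodes under 1000 UMIs were removed, as were doublets, by library, with Scrublet (scanpy 1.11.5), which marked 7898 and 8340 barcodes. Clustering followed the methods: log-normalized counts, highly variable genes, regression on UMIs and mitochondrial share, 50 components, and Leiden clusters (leidenalg 0.10.2) at 0.2, or 0.5 for fine clusters. The 3 neighbours taken from each library were a choice made here. The 44 genes and 104 other splicing genes were left out of the clustering. Classes were named from 14 or 28 markers that the study listed from these libraries, with naming thresholds set after the files were seen. CPM have exact Poisson and ratios exact conditional binomial intervals, shares Clopper-Pearson intervals (scipy 1.17.1, numpy 2.4.6, pandas 2.3.3). A gene needed 5 CPM in 1 group. The script was tested on simulated data. Positions are those of GENCODE 44 on GRCh38. Alternatives were other cell filters, denominators, thinning, clusterings, folds and minimums, and each library alone. Genes named are the members past a fold, SRSF5, SRSF6, CLK1, the neuronal-type regulators by class, and the 3 highest and 3 lowest other splicing genes. HNRNPC, ESRP1, PTBP1 and MBNL1 in further classes, and members just outside a fold, were added after their values were seen. The members and lists were chosen with earlier results of these data known.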

Additional observations from a re-analysis of the deposited data

Results flagged for a closer look

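SRRM4 differed between the libraries in opposite directions in 2 classes. The log2 ratio of DOX over no DOX, by label, was 0.33 (0.16 to 0.50) in delta-like cells and -0.34 (-0.42 to -0.26) in beta-like cells. Each class is 1 library per condition, so the difference between the classes was not tested. Of the 5 fine clusters of mostly beta-like cells, the 4 larger were below 0, from -0.51 (-0.70 to -0.32) to -0.22 (-0.35 to -0.09), and the smallest, of 163 cells, was at -0.43 (-2.70 to 2.82). The delta-like fine cluster was at 0.32 (0.15 to 0.49). The 3 fine clusters of mostly beta cell progenitor-like cells were at 0.36 (0.05 to 0.66), -0.30 (-0.53 to -0.07) and -0.29 (-0.74 to 0.15), from the largest to the smallest.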

How the results depend on the processing

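No paired analysis was possible because each condition has 1 library, and for the same reason no replicate could be left out. Between the libraries (0 higher and 0 lower), thinning to 5000 UMIs and weighting classes equally each gave 1 higher (SRSF5), equal weighting 1 lower (QKI), and no minimum CPM 1 higher (RBFOX3) and 1 lower (ELAVL4). In duct-like cells (14 higher, 5 lower) the counts were 8 and 2 with doublets kept, in a cluster of 625 cells that took the name of the 331. They were 7 and 9 without hormone and mitochondrially encoded genes in the totals, 26 and 9 at a log2 ratio of 0.5, and 3 lower with at least 20 CPM. In proliferating progenitor-like cells (5 higher, 1 lower) they were 0 and 0 with doublets kept, where NOVA2 had a log2 ratio of 0.32 in a cluster of 10166 cells that took the name of the 974. There 1 was higher without hormone and mitochondrially encoded genes or after centring on the median, and 21 were higher and 4 lower at a log2 ratio of 0.5. The number lower was 0 without cells over 20% mitochondrial UMIs, after thinning, at Leiden resolution 0.5, with another Leiden seed and with at least 20 CPM, 3 with no minimum CPM and 2 in the library labelled no DOX alone. In beta-like over beta cell progenitor-like cells (0 higher, 4 lower), 2 were higher without hormone and mitochondrially encoded genes. There 1 was higher from means of log-normalized values, after thinning, at Leiden resolution 0.5, after centring, at a log2 ratio of 0.5, with no minimum CPM and in the library labelled no DOX alone, and 1 was lower after centring and 12 at a log2 ratio of 0.5. At Leiden resolution 0.5 a cluster of 6363 mostly beta-like cells and a cluster of 2791 mostly beta cell progenitor-like cells stayed unnamed. The classes compared at that resolution therefore lack these cells. Of these settings, shares of all genes are given above only with doublets kept or without hormone and mitochondrially encoded genes. The other counts here have no background. Of 691 alternative values of 41 single gene results, 125 moved beyond their counting interval and 13 changed sign, NOVA2 above and 12 values of SRSF5, SRSF6 and CLK1, which were not past the fold. Leaving out a low-mitochondrial alpha-like cluster, added after seeing the data, moved none of the counts beyond 1.5 times. The causes were not tested. With 331 duct-like cells, counts of few UMIs limit the duct-like values.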

Other observations

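A fine cluster of 1116 cells with alpha markers (958 alpha-like and 153 delta-like by the coarser classes) stood apart from the other alpha-like cells, and was chosen for description after its values were seen. Its cells had 0.800% mitochondrial UMIs, and MALAT1, a nuclear RNA, was counted at 1069.6 CPM against 23917 CPM in the main alpha-like fine cluster of 8091 cells. HNRNPH1, which binds G-rich RNA, was counted at 36.0 against 74.6 CPM, and CLK1 at 18.7 against 30.2 CPM. Of 42 members 0 were higher and 2 lower by a log2 ratio of 1 in both libraries, against 0.19% and 8.82% of all genes. The 2 members were QKI at -1.54 (-2.86 to -0.48), which passed the minimum only through the main cluster, and ELAVL2 at -1.14. TRA2A and CELF4 had log2 ratios of -0.82 and -0.96. HNRNPA1 (0.57), SRSF9 (0.4002) and SRSF3 (0.27) lay on the other side, and SRSF5 was nearly level at -0.03. The median log2 ratio was -0.15 over 42 members and -0.24 over 10022 genes. The cluster had a median of 2828 UMIs, and the part of depth and of mitochondrial share in these values was not tested.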
